A study of Homo sapiens with 12 samples.

Results

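The 8 genes described here encode the TAM receptors AXL, TYRO3 and MERTK, their ligands GAS6 and PROS1, the receptors MET and MST1R, and the MET ligand HGF. They were taken by symbol from the 33514 gene symbols of the count matrices, by a rule that names them and sets no threshold on their values, and all 8 had a row. Of these, 7 passed the filter on low counts and were tested among 17897 genes, and HGF did not pass it. The study profiled single cells of SCC1, SCC6 and SCC25, 3 established lines of squamous cell carcinoma of the head and neck (HNSCC). It asked which transcripts respond early to cetuximab, a monoclonal antibody against the growth factor receptor EGFR. Each line received 100 nM cetuximab, or PBS in the untreated cells, once a day for 5 days in medium with fetal bovine serum. There were 2 replicates per line and treatment, 12 samples in all. Each line is a single line grown alone, without stroma, and the duplicates carry replicate numbers, with sequencing in duplicate stated and separate cultures not. The p-values therefore measure the spread between these samples, which may be technical. With 2 samples per group, groups can easily lie apart by chance, so statements on overlap describe these samples only. The share of all genes whose groups lay apart was not counted.

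TAM receptors are receptor tyrosine kinases whose vitamin K-dependent ligands GAS6 and PROS1 bridge them to phosphatidylserine on apoptotic cells and vesicles. GAS6 binds all the TAM receptors, with the highest affinity for AXL, whereas PROS1 binds TYRO3 and MERTK. MET is bound by HGF, which stromal cells usually supply, and its relative MST1R (RON) by MST1. In epithelial tumours AXL and MET are known as receptors that can feed the MAPK and PI3K pathways when EGFR is blocked, and are for that reason called bypass receptors.

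In GRCh38.p14 coordinates of the RefSeq annotation, AXL lies at chr19:41219223-41261766, TYRO3 at chr15:41559212-41583589, MERTK at chr2:111898607-112029561 and MET at chr7:116672196-116798377, all on the plus strand. On the minus strand lie GAS6 at chr13:113820549-113864076, PROS1 at chr3:93873051-93973896, MST1R at chr3:49887002-49903873 and HGF at chr7:81699010-81770047. Levels are UMI counts summed per gene and sample, so each is a value for the whole gene. The 250 bases upstream of the annotated start are printed 5′ to 3′ on the gene's strand for AXL, GAS6 and MET, because these were the most abundant members and their starts lie in differing sequence. Capitals mark matches, on either strand, to the TFAP2 motif GCCNNNGGC or the GC box GGGCGG, which reads CCGCCC on the other strand.
AXL, chr19:41218973-41219222 (+): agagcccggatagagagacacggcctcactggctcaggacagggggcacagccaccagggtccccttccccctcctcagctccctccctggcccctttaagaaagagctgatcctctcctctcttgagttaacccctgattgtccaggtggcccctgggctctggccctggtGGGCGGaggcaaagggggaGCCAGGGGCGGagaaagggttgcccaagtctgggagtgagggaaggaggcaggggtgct
GAS6, chr13:113864077-113864326 (−): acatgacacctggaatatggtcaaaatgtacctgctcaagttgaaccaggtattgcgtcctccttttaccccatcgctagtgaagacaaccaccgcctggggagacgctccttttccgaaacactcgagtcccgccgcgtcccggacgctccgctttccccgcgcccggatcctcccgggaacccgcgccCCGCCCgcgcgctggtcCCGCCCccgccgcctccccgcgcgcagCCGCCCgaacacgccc
MET, chr7:116671946-116672195 (+): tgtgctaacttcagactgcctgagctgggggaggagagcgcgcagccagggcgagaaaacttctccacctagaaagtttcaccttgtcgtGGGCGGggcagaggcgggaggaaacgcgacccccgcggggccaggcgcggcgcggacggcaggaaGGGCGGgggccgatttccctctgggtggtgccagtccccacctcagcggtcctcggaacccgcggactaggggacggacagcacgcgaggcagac
The stretch upstream of AXL held 4 CpG dinucleotides, against 31 upstream of GAS6 and 24 upstream of MET, at a similar GC content of 64.4%, 66.8% and 68.4%. AXL had 1 TFAP2 match, 59 to 51 bases before the start, which overlapped 1 of its 2 GC boxes, and GAS6 and MET had 3 and 2 GC boxes and no TFAP2 match. Of the 8 members, 4 held the TFAP2 motif, 1 (TYRO3) the AP-1 motif TGANTCA and 7 the GC box. Among 35116 RefSeq promoters of the same length, 19.8% held the TFAP2 motif, 6.57% the AP-1 motif and 42.6% the GC box. These matches describe the letters only and bear on no measurement here.

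The matrices held 23914 cells, 5270 of SCC1, 9724 of SCC6 and 8920 of SCC25, with 961 to 2854 cells per sample. Each sample summed to between 57057402 and 112170073 UMIs, where a UMI is one tagged transcript end, and the median cell had 24078.5 to 54864 UMIs. Cell barcodes recurred between replicates (3 to 10 per pair) and between samples of other groups (1 to 13 per pair). Of the epithelial markers, the squamous list summed to 947 to 13736 CPM (UMIs scaled to a common library total after TMM normalisation) and was lowest in SCC6. There the keratin genes KRT5 and KRT14 were at 1.16 to 4.47 and 0.424 to 2.52 CPM. The other genes of the list were higher in SCC6 with PBS. KRT17 was at 492 to 922 CPM, EPCAM at 183 to 298 and DSP at 105 to 157. CDH1 was at 26.2 to 43.6 CPM, KRT6A at 17.6 to 23.9 and TP63 at 6.81 to 14.1. The leukocyte genes PTPRC and CD3E did not exceed 0.0691 and 0.0129 CPM, their sum with ALB and HBB did not exceed 0.162 CPM, and endothelial markers summed to at most 0.660 CPM. Macrophage markers reached 211 CPM in SCC25, mostly through CD68, while CD163 and TYROBP did not exceed 0.0125 CPM in SCC25. CD14 was at 8.23 to 13.5 CPM in SCC1, 1.41 to 5.24 CPM in SCC25 and at most 0.111 CPM in SCC6. CSF1R did not exceed 0.752 CPM and LYZ 0.0583 CPM in any sample.

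AXL was the most abundant TAM receptor in every sample, with 85.4% to 96.6% of the UMIs of the 3 receptors. Over all samples AXL had 107845 UMIs, GAS6 77371, MET 42264, TYRO3 8550, MST1R 5910, PROS1 3697, MERTK 238 and HGF 1. The assay tags each transcript at its 3′ end once, so these levels were not divided by gene length, and differences in capture between genes remain in them.

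**Figure D1:**
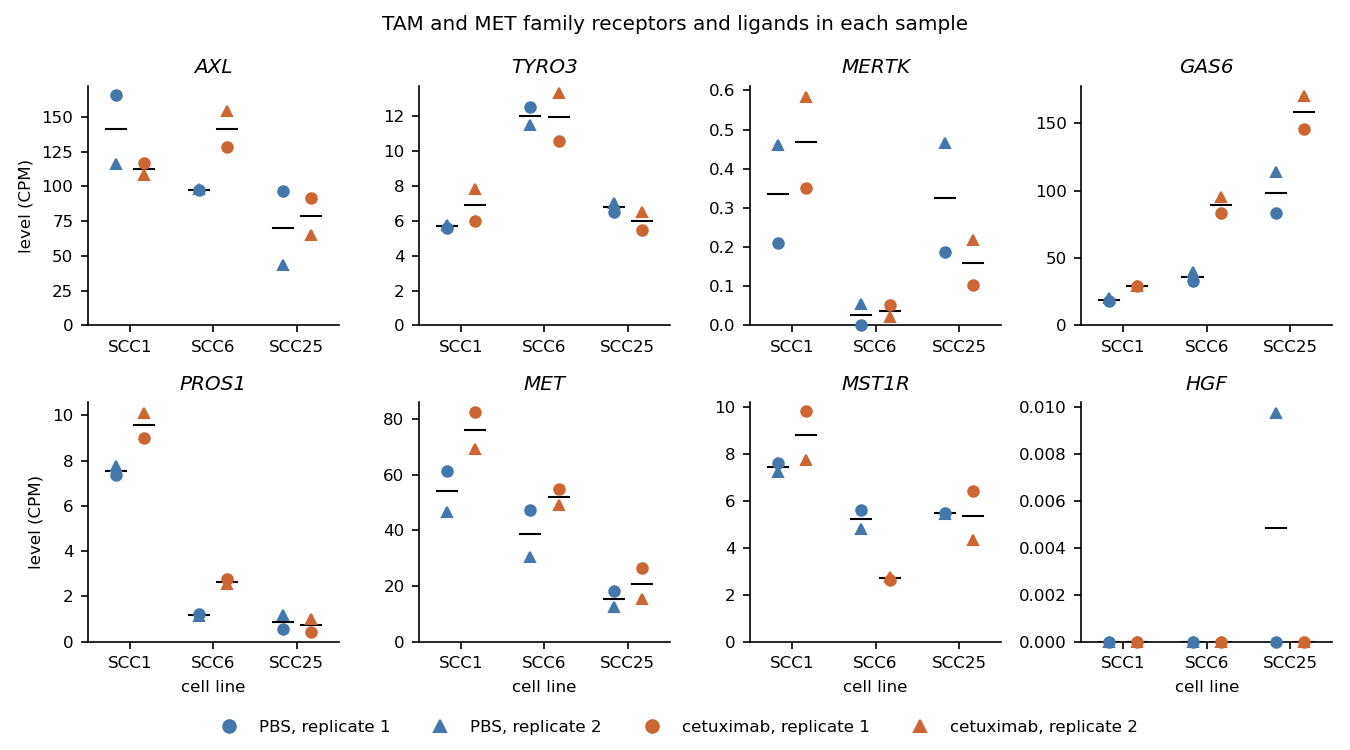
Level of each of the 8 members (CPM, linear axes that differ between panels) by cell line, with 1 point per sample, blue for PBS, orange for cetuximab, circles for replicate 1, triangles for replicate 2 and a bar at the mean. The GAS6 points with cetuximab lie above those with PBS in all 3 lines, and the MST1R points lie below them in SCC6.

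Untreated, the lines differed in several members. SCC1 carried the most PROS1 and MET and the least GAS6, SCC25 carried the most GAS6, and SCC6 held the most TYRO3 and almost no MERTK. In each of the 3 line comparisons 4 of the 7 tested members passed the edgeR test at an adjusted p under 0.05, where 40.2% of all genes passed for SCC6 against SCC1, 40.8% for SCC25 against SCC1 and 40.9% for SCC25 against SCC6. The members' share is based on 7 genes and lay near those backgrounds.

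AXL, untreated, was at 166 and 116 CPM in SCC1, 97.4 and 97.9 CPM in SCC6, and 96.8 and 43.8 CPM in SCC25. The samples of SCC1 were above those of both other lines, and the first replicates of SCC6 and SCC25 were nearly level. SCC25 differed from SCC1 by −1.003 ± 0.34 (log2, SE, adjusted p = 0.0389), a call that was lost without the first PBS replicate of SCC1 (adjusted p = 0.215), without the second of SCC25 (0.197) or without the 5% of cells with the most UMIs (0.0523). SCC6 did not pass against SCC1 (−0.53 ± 0.34, adjusted p = 0.247), nor did SCC25 against SCC6 (−0.47 ± 0.34, adjusted p = 0.297), which passed without the first PBS replicate of SCC25 (0.0195).

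TYRO3 was highest in SCC6, at 12.5 and 11.5 CPM, against 5.57 and 5.79 CPM in SCC1 and 6.53 and 7.03 CPM in SCC25. The SCC6 values did not overlap those of either other line. The differences were 1.08 ± 0.22 from SCC1 (adjusted p = 0.00285) and, for SCC25 against SCC6, −0.83 ± 0.21 (adjusted p = 0.0113), while SCC25 did not pass against SCC1 (0.25 ± 0.21, adjusted p = 0.375). The call of SCC25 against SCC6 was lost without the first PBS replicate of SCC6 (adjusted p = 0.0508) or of SCC25 (0.0611). MERTK, a receptor best known from macrophages and the retinal pigment epithelium, was at 0.210 and 0.461 CPM in SCC1 and 0.187 and 0.466 CPM in SCC25. In SCC6 it had no UMI in one PBS replicate and 0.0544 CPM in the other. Over treated and untreated cells MERTK had 133 UMIs in SCC1, 94 in SCC25 and 11 in SCC6. The test gave SCC6 below SCC1 (adjusted p = 0.0134) and SCC25 above SCC6 (adjusted p = 0.0139), at counts too low for the fold to be a measure of size. The first call was lost without the second PBS replicate of SCC1 (0.0916) or the first of SCC6 (0.0698), and the second without the first PBS replicate of SCC6 (0.0736) or the second of SCC25 (0.0923).

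The TAM ligands had different orders across the lines, with SCC1 lowest in GAS6 and highest in PROS1. GAS6 in PBS was at 18.0 and 20.1 CPM in SCC1, 33.0 and 39.5 CPM in SCC6, and 83.4 and 114 CPM in SCC25, with no overlap between lines. Each step passed the test, SCC6 over SCC1 by 0.93 ± 0.21 (adjusted p = 0.00543), SCC25 over SCC6 by 1.44 ± 0.21 (adjusted p = 0.000483) and SCC25 over SCC1 by 2.37 ± 0.22 (adjusted p = 2.65e-05). The first of these was lost without the first PBS replicate of SCC1 (adjusted p = 0.0578). PROS1, also the plasma anticoagulant protein S, was at 7.36 and 7.75 CPM in SCC1, 1.24 and 1.11 CPM in SCC6, and 0.536 and 1.19 CPM in SCC25. SCC1 stood above both other lines, by −2.68 ± 0.42 for SCC6 against it (adjusted p = 0.000663) and −3.12 ± 0.43 for SCC25 against it (adjusted p = 0.000331), and SCC6 and SCC25 overlapped (−0.44 ± 0.41, adjusted p = 0.429).

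MET in PBS was at 61.4 and 46.6 CPM in SCC1, 47.2 and 30.4 CPM in SCC6, and 18.1 and 12.3 CPM in SCC25. SCC1 and SCC6 overlapped and SCC25 lay below both. SCC25 was lower than SCC1 by −1.83 ± 0.33 (adjusted p = 0.00158) and than SCC6 by −1.35 ± 0.32 (adjusted p = 0.00765), and SCC6 did not pass against SCC1 (−0.48 ± 0.32, adjusted p = 0.262), but did with a replicate term shared by all lines (0.0285). The call against SCC6 was lost without the first PBS replicate of SCC6 (0.0629) or the second of SCC25 (0.0590). MST1R differed little between lines, from 4.81 to 7.61 CPM in the 6 PBS samples, and no line pair passed (adjusted p = 0.115, 0.163 and 0.851), although SCC6 against SCC1 did with the shared replicate term (0.0398). HGF had 1 UMI in all 12 samples, in the second PBS replicate of SCC25 (0.00972 CPM), and for the other samples a count of 0 allows 0.0287 to 0.0526 CPM. At this depth HGF transcripts were not detectable in the lines, and HGF protein, including any in the serum, was not measured.

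Cetuximab was compared with PBS within each line, where overlap between groups of 2 samples is a description and not a test. GAS6 was higher with cetuximab in all 3 lines and in 6 of 6 pairs of replicates with the same number, as 10.5% of all tested genes were. It was the 1 member to pass the test in SCC6 and across lines. In SCC6 1 of 7 members passed where 3.81% of all genes did, in SCC1 0 of 7 where 0.0168% did, in SCC25 0 of 7 where 0% did, and across lines 1 of 7 where 3.67% did. The 0 genes called in SCC25 by edgeR compare with 1041 of 17897 at an unadjusted p under 0.05 and with 101 called by DESeq2. By chance alone a share of 0.05 of unchanged genes would have an unadjusted p under 0.05. The replicate numbers were taken to pair the samples within a line, which the labels do not state. With the pair as a block the members called were 1 in SCC1 (background 4.45%), 3 in SCC6 (20.1%), 0 in SCC25 (0.978%) and 2 across lines (11.6%). The median log2 change of the 7 members was 0.34 in SCC1, 0.42 in SCC6, −0.02 in SCC25 and 0.12 across lines, and that of all tested genes was 0.00119, 0, −0.00675 and 0.006.

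**Figure D2:**
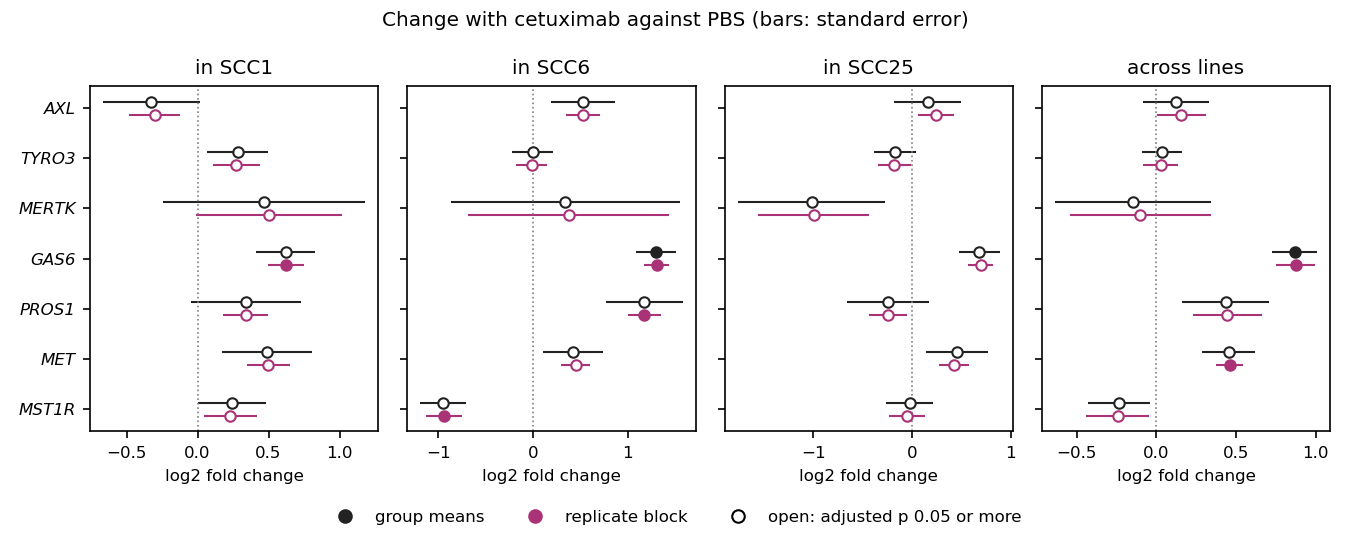
Log2 fold change of cetuximab over PBS for the 7 tested members in each line and across lines, as points with bars of 1 SE, in black for the edgeR fit of group means and in purple for the fit with the replicate block, filled where the adjusted p was under 0.05. GAS6 is filled in black in SCC6 and across lines, and MST1R, PROS1 and MET are filled only with the block.

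GAS6 rose in SCC6 from 33.0 and 39.5 CPM with PBS to 83.7 and 95.0 CPM with cetuximab, and the groups were well apart. The change was 1.30 ± 0.21 (log2, adjusted p = 0.0122, and 7.41e-07 by DESeq2). The call was lost without the first PBS replicate (adjusted p = 0.139), without the first cetuximab replicate (0.0651) and without the second (0.0521). In SCC1 it was at 18.0 and 20.1 CPM with PBS and 29.5 and 29.2 CPM with cetuximab, and in SCC25 at 83.4 and 114 CPM with PBS and 146 and 170 CPM with cetuximab. The groups did not overlap in either line. The differences of 0.62 ± 0.21 in SCC1 (adjusted p = 0.397) and 0.68 ± 0.21 in SCC25 (adjusted p = 0.611) did not pass, and with the replicate block the SCC1 value passed (0.0354) and that of SCC25 did not (0.0508). With the shared replicate term neither passed. Across lines GAS6 rose by 0.87 ± 0.14 (adjusted p = 0.0116, with the replicate block 0.00894). Within pairs the level with cetuximab was 1.64 and 1.45 times that with PBS for SCC1, 2.53 and 2.40 times for SCC6, and 1.75 and 1.497 times for SCC25. The test for a difference of the change between lines did not pass for GAS6 (adjusted p = 0.736, and 0.150 with the replicate block), nor for any member. For this test 0 of 7 were called where 0% of all genes were called by edgeR, and 276 genes were called by DESeq2. By edgeR 1318 of 17897 genes had an unadjusted p under 0.05, which a share of 0.05 of unchanged genes would have by chance.

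Genes beside GAS6 were measured too, and whether any share its reads was not tested. GAS6-AS1, whose antisense transcript overlaps the gene, did not exceed 1.69 CPM in any sample. GAS6-DT, the divergent transcript at its start, was at a mean of 0.701 CPM with PBS and 2.67 CPM with cetuximab in SCC6 (1.92 ± 0.33, adjusted p = 0.0162). Their levels were a small share of that of GAS6.

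The sum of 7 fibroblast markers was higher with cetuximab in each line, as GAS6 was, while the mesenchymal gene VIM was higher in SCC6 and SCC25 and lower in SCC1. VIM, the intermediate filament vimentin of mesenchymal cells, was at a mean of 63.2 CPM with PBS and 823 CPM with cetuximab in SCC6 (3.70 ± 0.60, adjusted p = 0.0122), at 4.31 and 0.868 CPM in SCC1 (−2.30, adjusted p = 0.251, with the replicate block 0.0233), and at 322 and 502 CPM in SCC25 (0.64, adjusted p = 1). The 7 fibroblast markers summed to 1.13 to 3.33 CPM with PBS and 23.0 to 27.3 CPM with cetuximab in SCC6, 7.23 to 7.52 and 15.4 to 16.6 CPM in SCC1, and 19.9 to 41.2 and 44.6 to 83.0 CPM in SCC25. In SCC6 most of this was the collagen gene COL1A1, at 1.03 to 2.75 CPM with PBS and 18.8 to 22.6 CPM with cetuximab. Not every marker was higher in each line. In SCC25 the marker LUM overlapped, at 8.57 to 30.6 CPM with PBS and 18.1 to 58.0 CPM with cetuximab, and the means of PDGFRA and PDGFRB were not higher. In the cells with no UMI of any fibroblast marker, 46.9% to 98.8% of the cells thinned to 15000 UMIs per sample, the GAS6 level per cell was 3.02 and 2.60 times that of PBS in SCC6, against 3.06 and 2.67 times in all thinned cells. The corresponding ratios were 1.56 and 1.36, against 1.61 and 1.42, in SCC1, and 1.64 and 1.48, against 1.68 and 1.56, in SCC25. At such low marker levels a thinned cell can express these genes and show no UMI of them. The cells without a marker UMI are therefore not cells shown to lack these genes, and similar ratios would be found either way. A link between GAS6 and the fibroblast genes was not tested. In SCC6 GAS6 was higher with cetuximab both in VIM-negative cells, from 0.406 and 0.493 to 0.778 and 1.09 UMIs per cell of 15000 UMIs, and in VIM-positive cells, from 0.499 and 0.623 to 1.34 and 1.47 UMIs.

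PROS1, the other TAM ligand, was at 1.24 and 1.11 CPM in SCC6 with PBS and 2.77 and 2.53 CPM with cetuximab, without overlap. The difference of 1.17 ± 0.41 did not pass (adjusted p = 0.141) and passed with the replicate block (0.00431). In SCC1 it was at 7.36 and 7.75 CPM with PBS and 9.02 and 10.1 CPM with cetuximab (0.34 ± 0.39, adjusted p = 0.931), and in SCC25 at 0.536 and 1.19 CPM and 0.440 and 1.02 CPM (−0.24 ± 0.42, adjusted p = 1). The SCC1 groups were apart and those of SCC25 overlapped.

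AXL, the receptor of GAS6, showed no common direction. In SCC6 it was at 97.4 and 97.9 CPM with PBS and 128 and 154 CPM with cetuximab, without overlap (0.53 ± 0.34, adjusted p = 0.427). In SCC1 it was at 166 and 116 CPM with PBS and 117 and 108 CPM with cetuximab (−0.32 ± 0.34, adjusted p = 0.915), and in SCC25 at 96.8 and 43.8 CPM and 91.8 and 65.0 CPM (0.16 ± 0.34, adjusted p = 1). The PBS replicates of SCC25 differed from each other by more than either treated sample differed from them. Across lines AXL gave 0.12 ± 0.21 (adjusted p = 0.793). No AXL call appeared with the replicate block, where the lowest adjusted p was 0.0736, in SCC6.

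The ratio of GAS6 to AXL UMIs within a sample combines the ligand and receptor. It was 0.108 and 0.174 with PBS and 0.252 and 0.270 with cetuximab in SCC1, 0.339 and 0.404 and then 0.653 and 0.618 in SCC6, and 0.861 and 2.59 and then 1.59 and 2.61 in SCC25. The groups were apart in SCC1 and SCC6 and overlapped in SCC25.

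**Figure D3:**
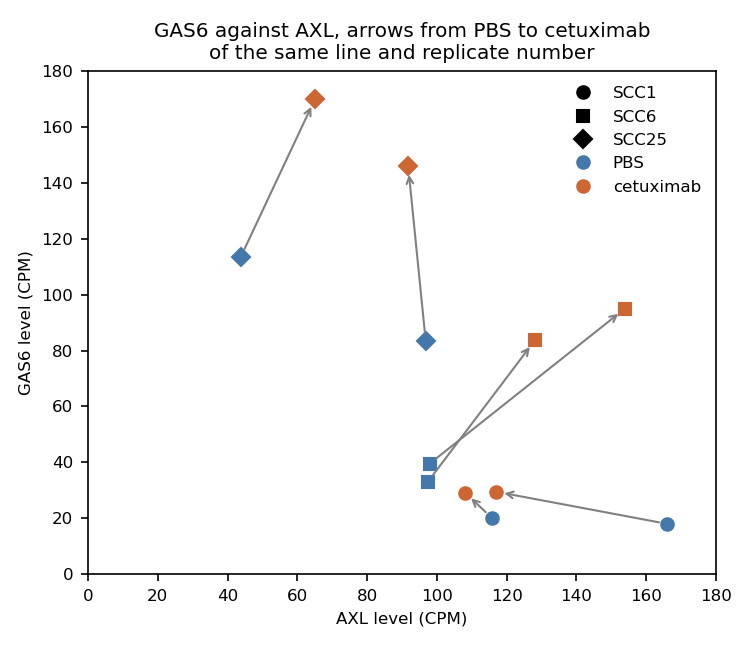
GAS6 level against AXL level (CPM) in the 12 samples, with circles for SCC1, squares for SCC6 and diamonds for SCC25, blue for PBS, orange for cetuximab, and arrows from PBS to cetuximab within a line and replicate number. The arrows point up in all 6 pairs, to the left in both SCC1 pairs and to the right in both SCC6 pairs.

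TYRO3 and MERTK did not pass in any line. TYRO3 was at 5.50 to 13.4 CPM over all samples, with differences of 0.28 ± 0.21 in SCC1 (adjusted p = 0.831), −0.01 ± 0.21 in SCC6 (adjusted p = 1) and −0.18 ± 0.21 in SCC25 (adjusted p = 1). MERTK with cetuximab was at 0.352 and 0.582 CPM in SCC1, 0.0515 and 0.0221 CPM in SCC6, and 0.104 and 0.217 CPM in SCC25, ranges that overlapped those with PBS in each line.

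MET was the second member higher with cetuximab in 6 of 6 pairs, as 10.5% of all genes were, although no single line passed. It was at 61.4 and 46.6 CPM with PBS and 82.5 and 69.2 CPM with cetuximab in SCC1 (0.49 ± 0.32, adjusted p = 0.769). In SCC6 it was at 47.2 and 30.4 CPM and then 54.7 and 49.0 CPM (0.42 ± 0.32, adjusted p = 0.515), and in SCC25 at 18.1 and 12.3 CPM and then 26.4 and 15.4 CPM (0.46 ± 0.32, adjusted p = 0.974). The groups were apart in SCC1 and SCC6 and overlapped in SCC25. Across lines the difference was 0.45 ± 0.17, which did not pass (adjusted p = 0.145) and passed with the replicate block (0.0156). The first replicate of MET exceeded the second in 6 of 6 groups, as did 13.7% of all genes, and the first replicate had fewer UMIs in total in 6 of 6 groups.

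MST1R had its clearest difference in SCC6, where it was lower with cetuximab, at 5.62 and 4.81 CPM with PBS and 2.64 and 2.77 CPM with cetuximab, without overlap. The difference of −0.95 ± 0.24 had an adjusted p of 0.0590 by edgeR, of 0.0131 with the replicate block and of 0.00492 by DESeq2. In SCC1 it was at 7.61 and 7.22 CPM with PBS and 9.83 and 7.72 CPM with cetuximab (0.24 ± 0.24, adjusted p = 0.905), and in SCC25 at 5.47 and 5.44 CPM and then 6.40 and 4.34 CPM (−0.02 ± 0.24, adjusted p = 1). MET UMIs per MST1R UMI in SCC6 were 8.39 and 6.31 with PBS and 20.7 and 17.7 with cetuximab, without overlap.

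The shares of cells with at least 1 UMI were measured after each cell was thinned to 15000 UMIs, which left out 851 cells and kept 23063. They are given as means of 2 samples with the SD, without a test. Of 4 genes that epithelial cells should lack (PTPRC, CD3E, ALB and HBB), 0% to 0.183% of the cells had a UMI, and 0% to 0.345% at full depth. MERTK, at 0.0411% to 1.02%, reached that background in SCC6.

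GAS6-positive cells made up 36.4% ± 4.49 in SCC6 with PBS and 67.5% ± 3.95 with cetuximab, 26.8% ± 1.53 and 35.8% ± 0.591 in SCC1, and 72.1% ± 5.40 and 82.8% ± 2.37 in SCC25. AXL-positive cells made up 61.1% ± 1.11 and 77.6% ± 2.84 in SCC6, 65.8% ± 8.16 and 63.0% ± 4.19 in SCC1, and 47.3% ± 18.9 and 51.3% ± 11.5 in SCC25. The 2 untreated SCC25 samples were at 60.7% (exact Clopper-Pearson 95% interval 58.6% to 62.7%) and 33.9% (32.1% to 35.8%), intervals that cover counting error only. The share of MET-positive cells was 54.1% ± 8.22 in untreated and 66.0% ± 4.77 in treated SCC1, 36.3% ± 6.02 and 50.6% ± 2.20 for SCC6, and 18.3% ± 5.20 and 24.5% ± 9.14 in SCC25. In SCC6 PROS1-positive cells went from 1.43% ± 0.00276 to 4.14% ± 0.183, and MST1R-positive cells from 6.59% ± 0.312 to 3.45% ± 0.297. For both genes the samples of the groups did not overlap in SCC6.

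**Figure D4:**
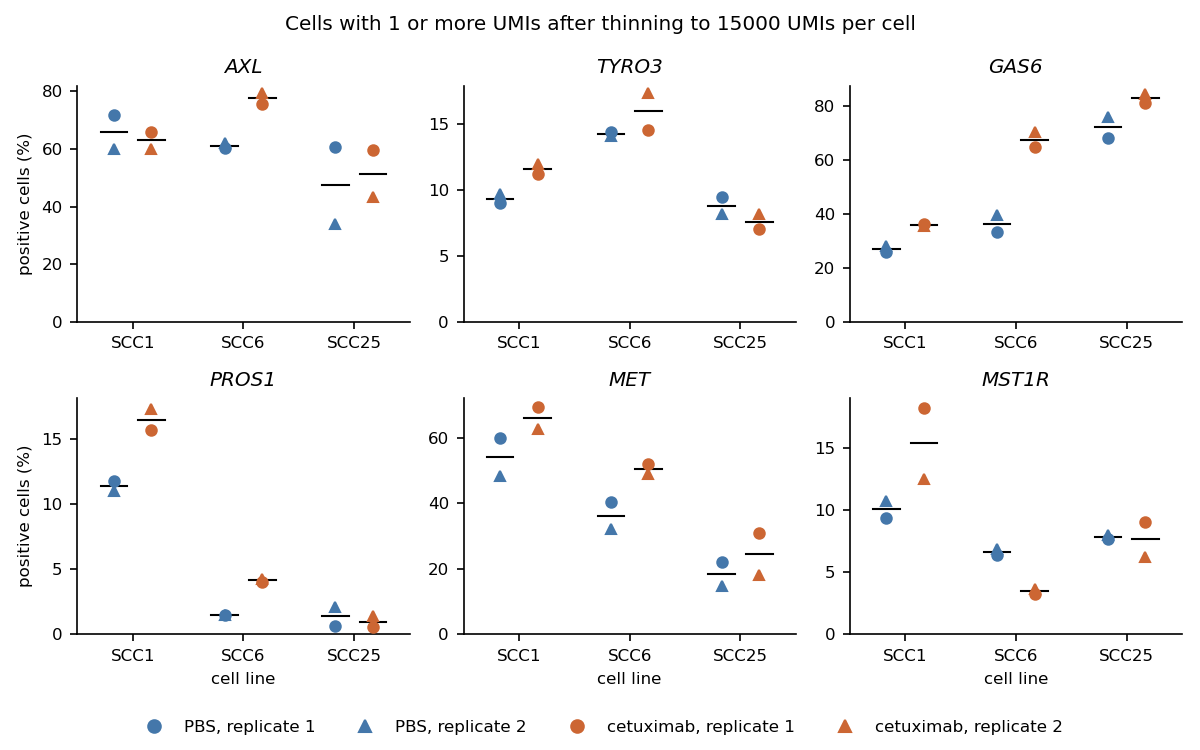
Percent of cells with at least 1 UMI of each member after thinning to 15000 UMIs per cell, for 6 members, with 1 point per sample (blue PBS, orange cetuximab, circles replicate 1, triangles replicate 2) and a bar at the mean. In SCC6 GAS6 went from a mean of 36.4% with PBS to 67.5% with cetuximab.

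AXL was found together with GAS6 and with MET in cells about as often as the single shares give. The share of cells with both AXL and GAS6, over the share expected from the 2 single shares, had group means of 0.989 to 1.04, and that of AXL with MET 1.02 to 1.06. This ratio cannot rise far above 1 where a single share is high. In SCC25 with cetuximab GAS6 was found in 81.1% and 84.5% of the cells, so a value near 1 says little there. Cells with both AXL and GAS6 were 23.1% of SCC6 with PBS and 53.5% with cetuximab, 18.0% and 23.6% of SCC1, and 34.0% and 42.0% of SCC25. Cells with both AXL and MET were 23.1% and 40.0% of SCC6, 37.4% and 44.0% of SCC1, and 9.61% and 13.5% of SCC25. A single cell held up to 98 AXL UMIs without thinning and up to 47 after it, both in SCC1.

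AXL differed with the vimentin state of the cell. In SCC25 with PBS, cells with a VIM UMI had 2.21 and 1.90 times the AXL UMIs of cells without one, and with cetuximab 1.63 and 2.13 times. In SCC6 the ratios were 1.49 and 1.32 with PBS and 1.02 and 0.913 with cetuximab, where VIM-positive cells were a mean of 26.4% ± 12.6 with PBS and 91.6% ± 0.847 with cetuximab. SCC1 had 9 to 45 VIM-positive cells per sample and was not compared. PROS1 in SCC6 was higher in VIM-positive cells, 1.69 and 1.93 times with PBS and 2.25 and 2.42 times with cetuximab, on 0.0114 to 0.0490 UMIs per cell. Without thinning the mean PROS1 ratio with cetuximab in SCC6 was 0.798 and that of AXL 1.26, so the direction of both rests on the thinning.

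Members also differed between cells with and without a UMI of the proliferation genes MKI67 or TOP2A. TYRO3 in SCC6 with cetuximab was 1.97 and 2.13 times as high in the proliferating cells, against 1.18 and 1.23 times with PBS. In SCC25 the TYRO3 ratios were 1.27 and 1.58 with PBS and 1.39 and 2.56 with cetuximab, and in SCC1 0.952 and 0.867 with PBS and 1.31 and 1.503 with cetuximab, so that the ratio was higher with cetuximab in each of the 6 pairs. PROS1 was lower in the proliferating cells in all 12 samples, with group means of 0.321 to 0.787. AXL was higher in them in all 12, in SCC25 at 1.40 and 1.42 times with PBS and 1.51 and 2.09 times with cetuximab. In SCC1 with PBS it was 1.23 to 1.48 times as high. Without thinning the mean AXL ratio with PBS was 2.12 in SCC1 and 2.02 in SCC25. Without thinning the mean TYRO3 ratio was still higher with cetuximab than with PBS in each line, 1.60 against 1.38 in SCC1, 2.31 against 1.97 in SCC6 and 2.71 against 2.43 in SCC25, and the PROS1 ratio of SCC25 with cetuximab was 1.12. Cells of 1 sample share a library, so these ratios describe the samples and carry no test.

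**Figure D5:**
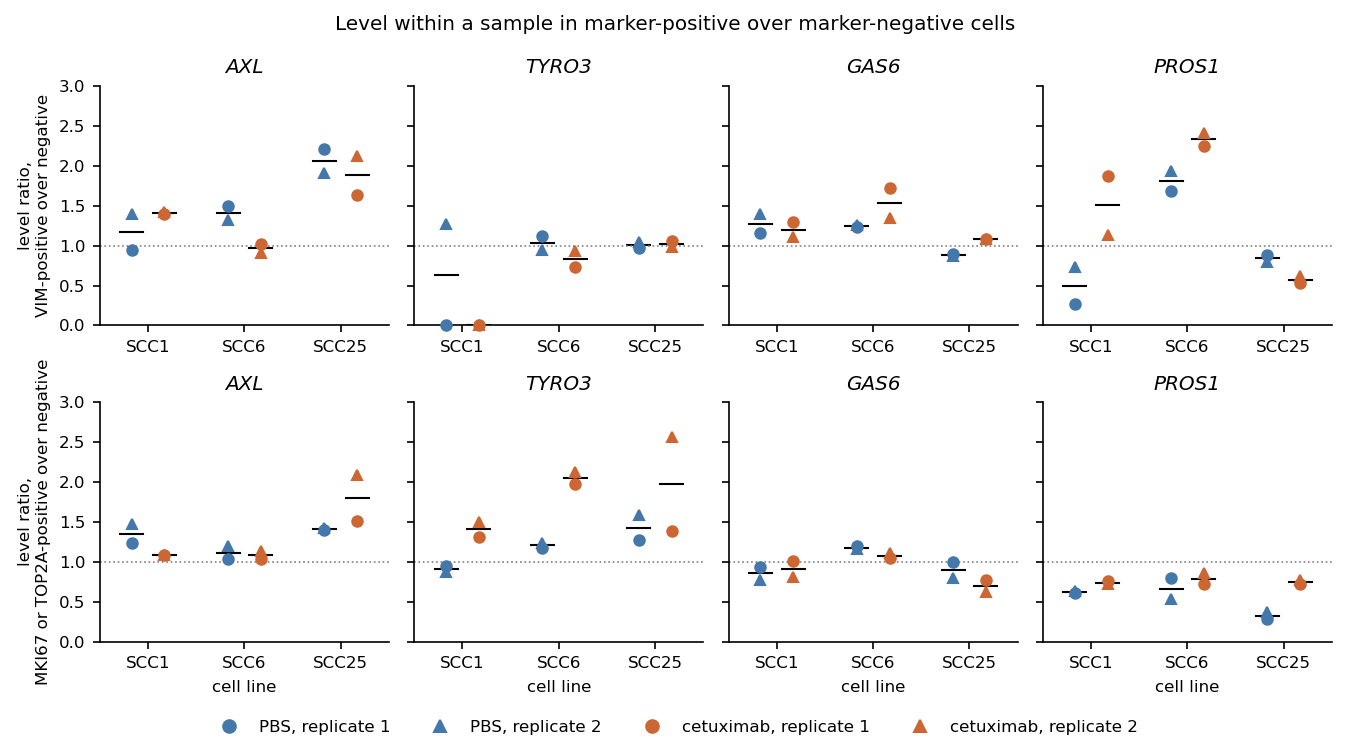
Level of AXL, TYRO3, GAS6 and PROS1 in VIM-positive over VIM-negative cells and in MKI67- or TOP2A-positive over negative cells (ratio of mean UMIs per thinned cell), with 1 point per sample (blue PBS, orange cetuximab, circles replicate 1, triangles replicate 2), a bar at the mean and a dotted line at 1. In the proliferation row TYRO3 lies higher with cetuximab in each line and PROS1 lies below 1 in each sample. In SCC1 the vimentin ratios rest on 9 to 45 positive cells per sample.

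Among 42 partners of these receptors (proteases and inhibitors of HGF activation, co-receptors, sheddases, adaptors and phosphatases), 40 were tested. In SCC6 1 rose, where 3.81% of all genes were called, and 0 changed in SCC1, in SCC25 and across lines, or passed for the difference between lines. Their median log2 change was 0.13 in SCC1, −0.06 in SCC6, 0.07 in SCC25 and 0.11 across lines. The 1 partner was PLCG1, a phospholipase recruited by MET, named after its value was seen, at 7.64 and 5.93 CPM with PBS and 16.5 and 11.5 CPM with cetuximab (1.04 ± 0.24, adjusted p = 0.0441). No partner was called with SCC6 fitted alone. Leaving out 1 SCC6 sample removed all partner calls in SCC6, except in the fit without the second cetuximab replicate. With the replicate block 13 partners passed in SCC6, 7 higher and 6 lower, 1 in SCC1, 0 in SCC25 and 6 across lines, and 1 (TMPRSS13, a protease, adjusted p = 0.0252) for the difference between lines. Across lines these were PLXNB1, PTPRF, CBLB, CD151 and GAB1, higher, and CD44, lower. CD44, a MET co-receptor, had differences of −0.97 in SCC1 (adjusted p = 0.451, with the block 0.0482) and −0.71 across lines (adjusted p = 0.0908, with the block 0.0439). Among partners with a mean of 10 CPM or more, those of lowest p beside CD44 were TIMP3 (0.81, adjusted p = 0.331) and ST14 (0.45, adjusted p = 0.652) in SCC1, and CD151 (0.41, adjusted p = 0.102) and PTPN2 (−0.35, adjusted p = 0.151) across lines. In SCC25 they were the plasminogen activator gene PLAT (−1.04, adjusted p = 0.892), TIMP3 (0.46, adjusted p = 0.908) and SPINT2 (0.39, adjusted p = 0.917). In SCC6 the 3 partners of lowest p among the abundant ones were SOS1, an exchange factor for RAS (0.87, adjusted p = 0.0821, with the block 0.0173), TIMP1, an inhibitor of metalloproteases (−0.70, adjusted p = 0.0824, with the block 0.00698), and PTPN2, a phosphatase that acts on MET (−0.70, adjusted p = 0.0894, with the block 0.0172).

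Untreated lines differed in 20, 20 and 15 of the 40 partners, for SCC6 against SCC1, SCC25 against SCC1 and SCC25 against SCC6, where 40.2%, 40.8% and 40.9% of all genes were called, so these counts lay near the background. SCC6 had less of PLAU, the urokinase that can activate HGF, than SCC1 (−1.94), less of the matriptase gene ST14 (−1.23), and more of PLXNB2 (1.84), CD44 (1.46), the HGF activator inhibitor SPINT2 (1.42) and the phosphatase PTPRF (1.26). SCC25 had more CD44 (1.89), LGALS3 (1.00) and ITGA6 (0.99) than SCC1, and less PLAU (−1.45), TIMP3 (−1.31) and ADAM17 (−0.88), ADAM17 being a sheddase. Against SCC6, SCC25 had less PLXNB2 (−1.80), PTPRF (−1.65), TIMP3 (−1.50), SPINT2 (−1.06) and ITGB4 (−0.86), and more PTPN2 (0.82).

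Of 49 other receptor tyrosine kinases 34 were tested. In SCC6 5 rose with cetuximab, where 3.81% of all genes were called, 0 did in SCC1 and SCC25, and 1 did across lines, where 3.67% were called. With the replicate block 10 rose in SCC6 and 3 across lines, against 20.1% and 11.6% of all genes. Leaving out 1 SCC6 sample lowered the count in SCC6, except that the count rose without the second PBS replicate. Each of these fits left 1 sample in a group. Across lines it was 0 in 10 of the 12 fits that left out 1 sample. The 5, all named after their values were seen, were FGFR2 (1.83, adjusted p = 0.0186), EPHA4 (2.15, adjusted p = 0.0339), EPHB4 (0.91, adjusted p = 0.0365), EPHA3 (adjusted p = 0.0103) and PDGFRB (adjusted p = 0.0144). EPHA3 had 0 and 1 UMIs with PBS and 21 and 15 with cetuximab, and PDGFRB, also 1 of the 7 fibroblast markers, 3 and 6 and then 102 and 123. EPHB4 was also the 1 called across lines (0.56 ± 0.13, adjusted p = 0.0367). The median log2 change in SCC6 was 0.56 over the 34 and 0.42 over the 7 tested TAM and MET members, with a difference between the lists not tested.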

How the data were processed

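Single-cell RNA libraries (10x Chromium 3′, v2 chemistry) were made from SCC1, SCC6 and SCC25 cells, with 2 replicates per line and treatment. The deposited values are UMI counts per gene and cell, made by the authors with Cell Ranger on GRCh38 per the labels, in 1 matrix per line, and cell names gave the sample. No version of Cell Ranger is given in the sources used here. No cells were removed or doublets called here, and each sample's counts were summed per gene.

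Sums (57057402 to 112170073 UMIs per sample) were fitted with edgeR 4.0.16 in R 4.3.3 (filterByExpr, TMM factors, 1 mean for each of the 6 groups, glmQLFit and glmQLFTest, two-sided), with Benjamini-Hochberg adjustment over 17897 genes and a threshold of 0.05. The effect across lines came from line plus treatment, and differences between lines from the interaction. Levels are CPM of the TMM-scaled total. Alternatives were DESeq2 1.42.0, its size factors, no count filter, a fit per line, a replicate block, a shared replicate term, leaving out each sample, leaving out cells above 20% mitochondrial UMIs, and leaving out the 5% of cells with most UMIs. Deviations from group means of samples with equal replicate numbers correlated at 0.377 in SCC1, 0.349 in SCC6 and 0.598 in SCC25, and at 0.177 to 0.428 between lines. Every pair exceeded 0.1, so the numbers were taken to pair the samples, a pairing read from the data, and the fit without the block remained the main one. The SCC1 and SCC6 values lay inside the range between lines. For these lines, pairing within a line cannot be told apart from a replicate difference shared across lines.

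For shares and within-cell levels 15000 UMIs were drawn per cell, without replacement. The GAS6 level in cells without a fibroblast marker was added after seeing the data. All 8 members are described. At most 6 partners per comparison are named, those called with a mean of 10 CPM or more by largest change, or the 3 with the lowest p. Members and lists were chosen with earlier results of these data known. The statistics were tested on simulated data. Promoters are from RefSeq GRCh38.p14, with 8 of 8 members matched. AXL and TYRO3 have 2 entries each, of which the first was used. For AXL and MET the 3 genes of most similar pattern were sought, and 1 of them is not reported here.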

Additional observations from a re-analysis of the deposited data

How the results depend on the processing

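The count of members called depended on the fit. With the replicate block it was 1 in SCC1, 3 in SCC6 and 2 across lines, and the block changed no other call of a member on the cetuximab effect. With a shared replicate term it was 0 in SCC1, 3 in SCC6 and 2 across lines, with DESeq2 2 in SCC6, and with the 4 samples of SCC6 alone 0 (GAS6 adjusted p = 0.0657), a fit on fewer samples. Without 1 sample, the members called ranged from 0 to 1 in SCC6 and from 1 to 4 for SCC25 against SCC6. Of 727 values of single members 676 kept their direction and side of the threshold, 16 lost a call, 11 gained one and 24 changed sign, none of those being called. The sign of TYRO3 in SCC6 was positive without the 5% of cells with most UMIs (0.0170) and in SCC6 alone (0.0122), that of MST1R in SCC25 without those cells (0.0204), and that of MERTK in SCC25 against SCC1 with DESeq2 size factors (0.00504) and DESeq2 (0.00593).

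Leaving out 1 sample, values that changed sign ranged from −0.19 to 0.15 for TYRO3 and −0.58 to 4.68 for MERTK in SCC6, and in SCC25 from −0.30 to 0.84 for AXL, −0.98 to 0.45 for PROS1 and −0.32 to 0.23 for MST1R. Across lines they ranged from −0.00585 to 0.28 for AXL, −0.0489 to 0.0936 for TYRO3 and −0.41 to 0.25 for MERTK. Between untreated lines they ranged from −0.86 to 0.65 for MERTK in SCC25 against SCC1, and for SCC25 against SCC6 from −1.13 to 0.0140 for PROS1 and −0.0460 to 0.18 for MST1R.

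Counts over all genes moved too. SCC1 had 3 genes called, and 243 without the count filter, 274 with DESeq2 and 797 with the block. SCC6 had 682, and 1233, 1671 and 3589, with 11 to 749 when 1 sample was left out. SCC25 had 0, and 128, 101 and 175. Across lines 656 were called, and 1043, 1771 and 2073, with 202 to 596 when 1 sample was left out. The interaction had 0, and 248, 276 and 230. The cause of these differences was not tested. Of 144 shares of positive cells 132 moved by more than the replicate SD under another thinning or a minimum of 2 UMIs. Of 75 within-cell ratios 54 moved. Most of the 75 compared thinned with unthinned cells. The GAS6 ratio of each line compared all thinned cells with those without a fibroblast marker UMI. The number of samples, 2 per group, and the few counts of MERTK, HGF and PROS1 limited what could be detected.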

Other observations

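The genes most like AXL over the 12 samples were RFWD3, SMURF2 and POM121, and those like MET included LAMC1 and RNF144B. The measure is the root mean square difference of log2(CPM + 1), each gene centred on its own mean, among 7557 genes of mean CPM 10 or more. It was 0.223, 0.226 and 0.232 for the AXL genes, 0.217 for LAMC1 and 0.245 for RNF144B. LAMC1 encodes a laminin chain of the basement membrane and SMURF2 a ubiquitin ligase of the TGF-beta pathway.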
